A study of Mus musculus with 8 samples.

Results

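The cathepsins are the main proteases of the lysosome. Their genes Ctsa, Ctsb, Ctsc, Ctsd, Ctse, Ctsh, Ctsk, Ctsl, Ctss and Ctsz, 10 of the 18193 genes with a probe set of their own on the array, were followed in the aging mouse RPE/choroid. Every probe set of the array that is annotated to one of these genes and to no other was taken, which gave 22 of the 45101 probe sets, and none of them was left out. The RPE/choroid, which is the retinal pigment epithelium (RPE) with the vascular layer behind it, came from male C57BL/6 mice aged 4 months (young) or 26 months (old), and no other treatment is given for either group. Each of the 4 young and 4 old samples held tissue of 4 RPE/choroids pooled from 2 animals and was hybridized to 1 Affymetrix mouse array, and the samples of an age are the replicates. A probe set is a group of short probes that report 1 transcript target, and its intensity is its summarized brightness in arbitrary units, which has no common scale between probe sets.

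Cathepsins are made as inactive precursors, are carried to the lysosome by receptors for mannose 6-phosphate or by sortilin, and become active there by cleavage at acid pH. They fall into cysteine proteases (B, C, H, K, L, S and Z), aspartic proteases (D and E) and a serine carboxypeptidase (A). In the RPE they digest the tips of photoreceptor outer segments that the cells engulf every day, and in macrophages and other antigen-presenting cells they break down engulfed material and trim the invariant chain of MHC class II.

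Single arrays stood apart in the summed markers of neutrophils and of rod photoreceptors, and the source of these signals was not tested. The summed intensity of 9 neutrophil markers was 17975 in old replicate 2, against 1356 to 1615 in the young arrays, and 2 of the markers rose with age, S100a8 (log2 fold change 2.78) and Camp (1.27), while Cxcr2 fell (−0.31), numbers near the shares of all 18193 genes that rose (11.8%) and fell (9.56%). S100a8 read 346, 7828, 867 and 888 in the old arrays, all above the young ones. In old replicate 2, S100a8 and S100a9 (7062) made up most of the sum, since bright probe sets lead any such sum. The log2 fold change of S100a8 was 1.87 without old replicate 2 and 3.37 without old replicate 1. At least 1 of these calls was lost when any array but old replicate 2 was left out. Of 6 rod photoreceptor markers, with sums from 7728 to 16627 in young and from 6034 to 16138 in old arrays, 0 passed the test, and 1 did without old replicate 4, the array with the last value. Pairs of arrays from 1 age were correlated at 0.991 or more over all probe sets, and the precision of every value is limited by the number of arrays. The p-values measure the spread between these pools, since the labels do not say more of how the samples of an age were kept apart.

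Most cathepsin genes were more highly expressed in the RPE/choroid of old animals. Of the 22 probe sets, 15 rose with age, 0 fell and 7 did not pass the test, where the test asks for an adjusted p under 0.05 (limma, Benjamini-Hochberg adjustment over all probe sets that are not controls). Among all 45037 probe sets tested, 9.22% rose. Of the 10 genes, each read at the probe set whose mean log2 intensity is highest, 8 rose (Ctsa, Ctsb, Ctsd, Ctsh, Ctsk, Ctsl, Ctss and Ctsz) and Ctsc and Ctse did not pass, against 11.8% higher and 9.56% lower among all 18193 genes. Ctse passed at its other probe set, 1427797_s_at (log2 fold change 0.64, adjusted p = 0.00205). The median log2 fold change, old over young, was 0.40 for the 10 genes and −0.02 for all genes. In 15 of the 22 probe sets all 4 old values lay above all 4 young values, which held for 12.3% of all probe sets, and these were the same 15 that passed the test. Only Ctsk and 1 probe set of Ctsb (1417492_at) also passed a fold of 2 with an adjusted p under 0.01, which 0.764% of all probe sets did in the upward direction. Without old replicates 2 and 4, 13 cathepsin probe sets rose, all but Ctsd and Ctsl 1451310_a_at of the 15, and the same 2 probe sets passed a fold of 2. In RNA from whole tissue, a larger share of cells of a type and more RNA per cell cannot be told apart.

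**Figure D1:**
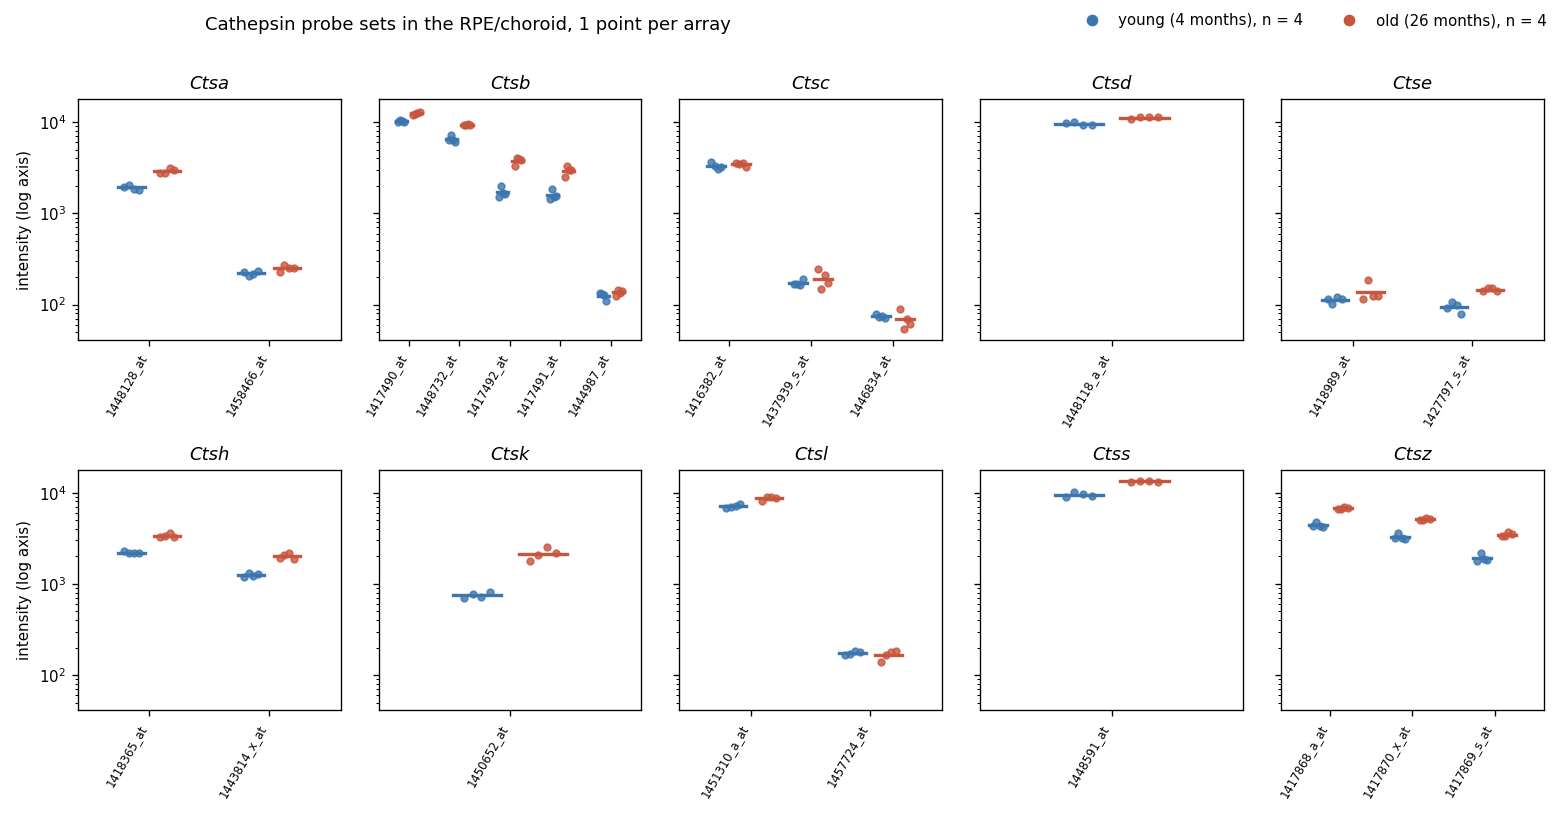
Intensity (log axis) of each of the 22 cathepsin probe sets in each array, with 1 panel per gene, young arrays in blue, old arrays in red and a line at each mean of 4. The old points lie above the young points without overlap in 15 probe sets, among them the single probe sets of Ctsd, Ctsk and Ctss, while the 3 probe sets of Ctsc overlap between the ages.

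The promoters are shown here for 3 genes. Ctsk had the largest change by a gene's highest probe set, Ctss lies near it on chromosome 3, and Ctsd holds copies of the lysosomal E-box. In the GRCm38.p6 build Ctsk spans chr3:95499210-95509387 and Ctss chr3:95526786-95556405, with 17398 bases and 1 lncRNA gene without a probe set, Gm40096, between them, and Ctsd spans chr7:142375910-142387827. The other genes lie at chr2:164832872-164841032 (Ctsa), chr14:63122462-63145923 (Ctsb), chr7:88278024-88315861 (Ctsc), chr1:131638314-131675507 (Ctse), chr9:90054267-90076095 (Ctsh), chr13:64361890-64370772 (Ctsl) and chr2:174427494-174439039 (Ctsz). The sequences are the 250 bases before each gene's start, from RefSeq, written 5′ to 3′ on the gene's strand: the minus strand at chr7:142387828-142388077 for Ctsd, the plus strand at chr3:95498960-95499209 for Ctsk and the plus strand at chr3:95526536-95526785 for Ctss. Capitals mark CACGTG, the core of the E-box that Tfeb binds, in Ctsd, and GAGGAA, the core that Spi1 (PU.1) binds, or its reverse complement TTCCTC, in Ctsk and Ctss.
Ctsd: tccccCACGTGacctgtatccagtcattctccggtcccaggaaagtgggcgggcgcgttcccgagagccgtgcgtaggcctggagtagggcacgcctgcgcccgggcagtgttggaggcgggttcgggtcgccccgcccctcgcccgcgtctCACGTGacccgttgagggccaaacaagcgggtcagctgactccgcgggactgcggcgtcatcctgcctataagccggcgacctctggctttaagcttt
Ctsk: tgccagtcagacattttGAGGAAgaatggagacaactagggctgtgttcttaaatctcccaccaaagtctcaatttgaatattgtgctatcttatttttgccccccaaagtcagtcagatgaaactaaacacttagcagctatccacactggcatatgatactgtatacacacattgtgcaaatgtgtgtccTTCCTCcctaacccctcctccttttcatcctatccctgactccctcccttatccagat
Ctss: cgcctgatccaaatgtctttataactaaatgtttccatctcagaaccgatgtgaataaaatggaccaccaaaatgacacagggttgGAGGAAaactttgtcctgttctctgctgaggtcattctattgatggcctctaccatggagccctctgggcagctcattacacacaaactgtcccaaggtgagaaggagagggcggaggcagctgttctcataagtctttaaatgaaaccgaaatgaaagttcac

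Promoter entries were at hand for 7 of the 10 genes, with 2 starts for Ctsa and none used for Ctsb, Ctse and Ctsh. In windows from 250 bases before to 50 bases after a start, searched on both strands, CACGTG was found in 3 of the 7 genes, Ctsa, Ctsd and Ctsl, and in 8.09% of all 27025 genes with a window. GAGGAA was found in Ctsc, Ctsk and Ctss, also 3 of 7, and in 31.3% of all genes. CATGTG, an E-box that Mitf also binds, was found in Ctsa and Ctss and in 15.9% of all genes, and the window of Ctsz held none of these motifs. The matches did not overlap one another, and a match describes the letters of a window and does not show that a factor binds there.

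Among the cysteine proteases, Ctsk had the largest change. Cathepsin K cleaves collagen and elastin and is best known from the bone-resorbing osteoclast. Its probe set 1450652_at read 693, 771, 713 and 821 in the 4 young arrays and 1761, 2079.7, 2559 and 2164 in the 4 old arrays. Every old array lay far above every young array, and old replicate 3 was the highest. The mean was 749 ± 58.0 (SD, n = 4) in young and 2141 ± 328 (SD, n = 4) in old arrays, and the log2 fold change was 1.50 (2.84-fold, standard error 0.11 and adjusted p = 5.61e-05). This change lay at the 99.6th percentile of all genes.

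Ctss encodes cathepsin S, which stays active near neutral pH and carries out the last step of invariant chain removal in antigen-presenting cells. The young arrays read 9005, 10095.5, 9596 and 9102 at 1448591_at, and the old arrays 13088, 13497, 13433 and 13214. The old arrays lay close together and apart from the young ones, of which young replicate 2 was the highest. Ctss rose 1.41-fold, which is 0.50 in log2 units ± 0.05 (standard error) with an adjusted p of 0.000506. Few probe sets of this brightness rose as far. Among the 123 probe sets with a mean intensity of 9000 or more, Ctss had the highest log2 fold change. The 95th percentile of the changes of these 123 was 0.26.

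Ctsb, whose product works both inside a protein chain and at its carboxyl end, has 5 probe sets. The brightest, 1417490_at, read 10002, 10632, 10195 and 9914 in young and 12112, 12416, 12722 and 12875 in old arrays, and 1448732_at read 6406, 7259, 6388 and 6088 in young and 9306, 9245, 9433 and 9388 in old arrays. The probe set 1417492_at read 1509, 1974, 1673 and 1625 in young and 3317, 4002, 3977 and 3853 in old arrays, and 1417491_at read 1447, 1829, 1527 and 1542 in young and 2476, 3331, 3009 and 2968 in old arrays. None of these 4 overlapped between the ages, and in each of them young replicate 2 was the highest young array. Their log2 fold changes were 0.30 (standard error 0.05), 0.52 (0.06), 1.16 (0.09) and 0.89 (0.10) in that order, with adjusted p from 9.50e-05 to 0.00452. The fifth, 1444987_at, lay between 108 and 135 in young and between 125 and 146 in old arrays, which overlap, with a log2 fold change of 0.13 and an adjusted p of 0.309.

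The size of the Ctsb change depended on the probe set read. The 4 that rose are annotated to the same database sequence, yet 1417492_at rose by 0.86 more on the log2 scale than 1417490_at (standard error 0.08, adjusted p = 0.000556) and 1417491_at by 0.59 more (standard error 0.09, adjusted p = 0.00511), in a limma fit to the difference between probe sets of a gene. The difference for 1448732_at was 0.22 (standard error 0.06, adjusted p = 0.0357), a call made in 6 of 15 alternatives. On the linear scale the mean old minus young intensities were 2346 (standard error 233) for 1417490_at, 2808 (255) for 1448732_at, 2092 (188) for 1417492_at and 1360.0 (195) for 1417491_at. The cause of the unequal changes was not tested.

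Cathepsin H, an aminopeptidase, and cathepsin Z, a carboxypeptidase, were raised in old animals at every probe set of their genes. For Ctsh, 1418365_at read 2297, 2198, 2158 and 2170.0 in young and 3286, 3376, 3621 and 3262 in old arrays, with a log2 fold change of 0.62 ± 0.05 (standard error) and an adjusted p of 0.000154. The other probe set, 1443814_x_at, ran from 1186 to 1323 in young and from 1859.5 to 2162 in old arrays, with a log2 fold change of 0.68. The Ctsh probe sets differed in their change by 0.06 (95% confidence interval −0.09 to 0.21, adjusted p = 0.554).

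For Ctsz, 1417868_a_at read 4363, 4779.6, 4267 and 4175 in young and 6654, 6629.7, 7024 and 6803 in old arrays. Ages did not overlap, and young replicate 2 and old replicate 3 were the highest of their groups. The log2 fold change was 0.63 (standard error 0.06, adjusted p = 0.000195), with 0.65 at 1417870_x_at and 0.85 at 1417869_s_at. The last of these rose by 0.23 more than the first (standard error 0.06, adjusted p = 0.0326), a call made in 7 of 15 alternatives, while 1417870_x_at differed from it by 0.03 (95% confidence interval −0.09 to 0.14).

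Ctsl, which encodes an endopeptidase found in most cells, rose by a smaller amount. Its brighter probe set, 1451310_a_at, read 6777, 7006, 7204 and 7479 in young and 8028, 8880.3, 8957 and 8679 in old arrays. The groups did not overlap, and old replicate 1 was the lowest old array. The log2 fold change was 0.28 (standard error 0.06, adjusted p = 0.0121), and without old replicates 2 and 4 it was 0.25 with an adjusted p of 0.0978. The second probe set, 1457724_at, lay between 141 and 183 in all 8 arrays with a log2 fold change of −0.08 (adjusted p = 0.527), 0.36 lower than that of the first (standard error 0.07, adjusted p = 0.0117). With the mean over all of a gene's probe sets as its value, the log2 fold change of Ctsl was 0.10 (adjusted p = 0.293), while that of Ctsb was 0.60 and Ctse passed the test at 0.45 (adjusted p = 0.00745).

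Ctsc was the cysteine cathepsin that did not pass the test. Cathepsin C is a dipeptidyl peptidase that activates the granule proteases of neutrophils, mast cells and cytotoxic lymphocytes. At 1416382_at it read 3625, 3307, 3067 and 3184 in young and 3548, 3487, 3539 and 3253 in old arrays. The ranges overlapped, and the highest value of all was in young replicate 1. The log2 fold change was 0.07 with a 95% confidence interval of −0.08 to 0.22 (adjusted p = 0.487). The dimmer 1437939_s_at and 1446834_at, at 148 to 243 and 54.1 to 90.1 in old arrays, also overlapped between the ages, with log2 fold changes of 0.13 and −0.14.

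Of the aspartic proteases, Ctsd encodes cathepsin D, which carries much of the digestion of outer segments in the RPE. Its 1 probe set, 1448118_a_at, read 9724, 9917, 9359 and 9214.5 in young and 10865, 11317, 11300.5 and 11254 in old arrays. All old values lay above the young ones, with old replicate 1 below the other old arrays. The log2 fold change was 0.23 (standard error 0.05, adjusted p = 0.0147, 1.17-fold), the smallest among the 8 genes that rose, and without old replicates 2 and 4 it was 0.21 with an adjusted p of 0.107.

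Ctse encodes cathepsin E, an endosomal protease of immune and gastric cells, and both of its probe sets were dim. The first, 1418989_at, read 115, 101, 121 and 115 in young and 116, 188, 123 and 124 in old arrays, where old replicate 2, the array rich in neutrophil markers, alone stood above the rest, and its log2 fold change of 0.26 did not pass (adjusted p = 0.240). The second, 1427797_s_at, read 91.6, 108, 98.8 and 78.2 in young and 141, 151, 150.2 and 141 in old arrays. It did not overlap between the ages and rose by 0.64 (standard error 0.09, adjusted p = 0.00205). The changes of the pair differed by 0.38 (95% confidence interval 0.003 to 0.76, adjusted p = 0.154).

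Ctsa encodes cathepsin A, the serine carboxypeptidase that also protects lysosomal β-galactosidase and neuraminidase from breakdown. At 1448128_at it read 1931, 2067, 1869 and 1824 in young and 2750.1, 2771, 3116 and 2972 in old arrays. The gap between the groups was wider than the range of either, and the log2 fold change was 0.59 (standard error 0.06, adjusted p = 0.000467). The dim 1458466_at lay between 206 and 236 in young and between 230.1 and 275 in old arrays, with a log2 fold change of 0.19 (adjusted p = 0.0943) that was 0.41 below that of the first (standard error 0.10, adjusted p = 0.0255), a call made in 8 of 15 alternatives.

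**Figure D2:**
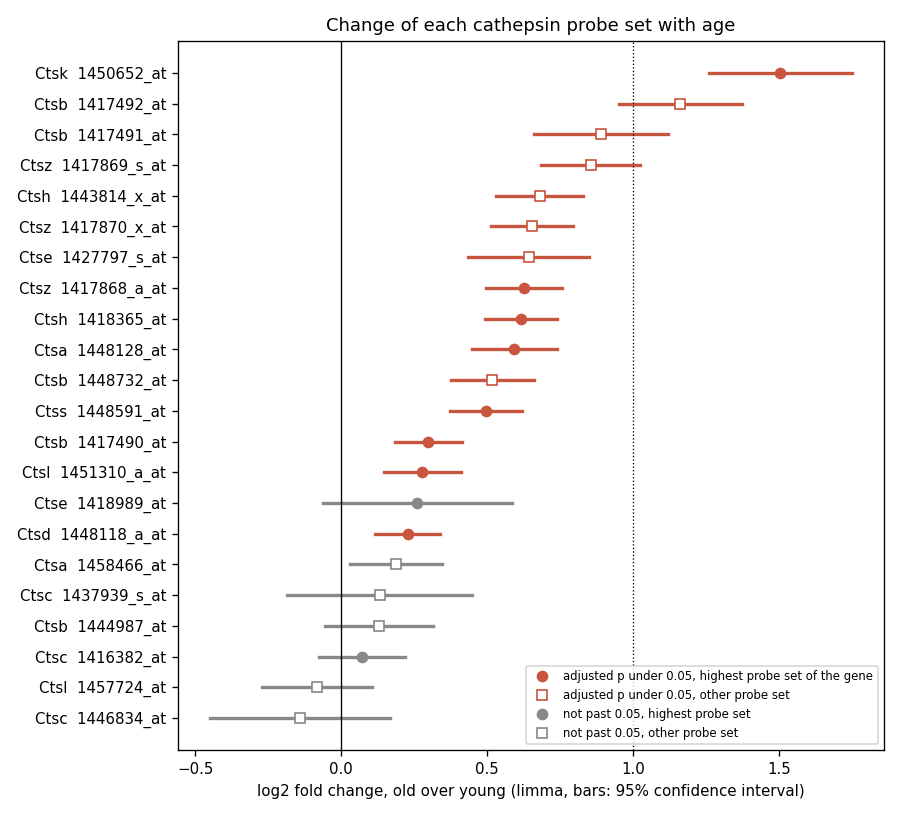
Log2 fold change, old over young, of the 22 cathepsin probe sets with 95% confidence intervals from limma, filled for the highest probe set of each gene, red where the adjusted p was under 0.05, with a dotted line at a log2 fold change of 1. Ctsk stands at 1.50 and the other filled points lie between 0.07 and 0.63.

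By the highest probe set of each gene, the changes fell into an order from Ctsk (1.50) through Ctsz (0.63), Ctsh (0.62), Ctsa (0.59), Ctss (0.50), Ctsb (0.30), Ctsl (0.28), Ctse (0.26) and Ctsd (0.23) to Ctsc (0.07). The interval of Ctsk, 1.26 to 1.75, lay above those of all the others at these probe sets. It overlapped that of the dimmer Ctsb probe set 1417492_at (0.95 to 1.38), so the order depends on the probe set read. The intervals of Ctsz, Ctsh, Ctsa and Ctss overlapped one another, as did those of Ctsb, Ctsl, Ctse and Ctsd. These were not separate tiers. The interval of Ctss (0.37 to 0.62) also overlapped those of Ctsb (0.19 to 0.41) and Ctsl (0.15 to 0.41). That of Ctse (−0.06 to 0.58) overlapped those of Ctsz, Ctsh, Ctsa and Ctss. The interval of Ctsc (−0.08 to 0.22) overlapped those of Ctsb, Ctsl, Ctse and Ctsd. Differences between genes were not tested.

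Probe sets of a gene often disagreed. Of the 12 pairs made of a gene's highest probe set and another of its own, 6 differed in their change, against 14.3% of all 16752 such pairs on the array. The differences for Ctsb 1417492_at, Ctsb 1417491_at and Ctsl 1457724_at passed under every alternative tried. Those for Ctsa 1458466_at, Ctsb 1448732_at and Ctsz 1417869_s_at did not, and the count was 3 without old replicates 2 and 4, without young replicate 1, 3 or 4, or without old replicate 3 or 4. Among the cathepsin probe sets, brightness went with the outcome of the test. Of 7 with means under an intensity of 300 at both ages, 1 passed, Ctse 1427797_s_at. Of the other 15, 14 passed, the exception being Ctsc 1416382_at. The shares called among all probe sets under and over 300 were not counted, so whether the whole array shows the same was not tested. Among all 31704 probe sets with a mean intensity under 300, the 95th percentile of the log2 fold change was 0.33. It was 0.55 from 300 to 3000, 0.52 from 3000 to 9000 and 0.26 from 9000 upward.

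**Figure D3:**
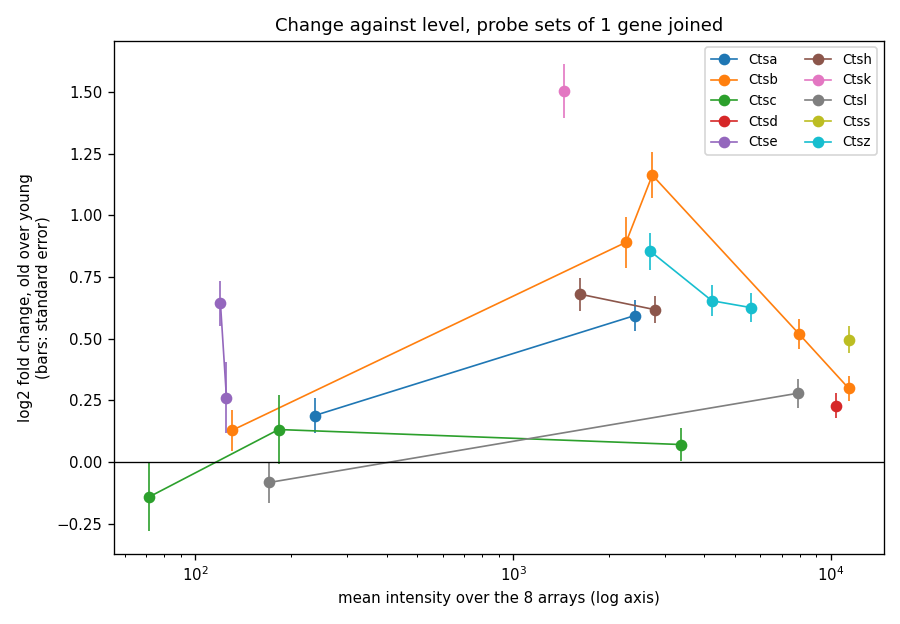
Log2 fold change, old over young, with its standard error, against the mean intensity over the 8 arrays (log axis), with the probe sets of a gene joined. The 4 Ctsb probe sets that rose run from 0.30 at the brightest to 1.16, and the 3 of Ctsz from 0.63 to 0.85.

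By the root mean square difference of centred log2 values over the 8 arrays, the genes nearest to Ctsk were Rnf149 (0.073), Ifi207 (0.090) and Stra6l (0.098). Rnf149 lay between 755 and 839 in young and between 1871 and 2618 in old arrays, and like Ctsk it was highest in old replicate 3 and lowest among the old arrays in replicate 1. The nearest to Ctsz were Cd9, a tetraspanin (0.031), Ctsa (0.035) and Mfsd1, a lysosomal transporter (0.047). This likeness is a description over 8 arrays that share the age difference.

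The genes that act on cathepsins were read from lists written from textbook knowledge, with earlier results of these data known. Of 8 measured inhibitors, 3 rose and 0 fell, where 11.8% of all genes rose and 9.56% fell. Their median log2 fold change was 0.53, which was 0.30 with old replicate 2 left out and 0.28 with old replicate 4 left out as well. Cstb, the intracellular inhibitor stefin B, lay between 4383 and 4683 in young and between 6319 and 6927 in old arrays and rose by 0.55 (adjusted p = 0.000218). Ctla2a and Ctla2b, which resemble the propeptide of cysteine cathepsins, rose by 0.60 and 0.79. Cst3, the secreted inhibitor cystatin C, lay between 14653 and 15181 in young and between 14543 and 14735 in old arrays, a log2 fold change of −0.02. Stfa2l1 and Stfa3, stefins of neutrophils, stood at 1197 and 341 in old replicate 2 and at no more than 131 and 46.3 in the other old arrays, and neither passed the test. Their log2 fold changes were 1.52 and 0.51, and without old replicate 2 they were 0.63 and −0.25.

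Of 13 genes for delivery to the lysosome and activation there, 7 rose and 1 fell, with a median of 0.16. Among all genes 11.8% rose and 9.56% fell, so the single fall is near that share. Lgmn, the asparaginyl protease legumain that cleaves cathepsin precursors, lay between 969 and 1145 in young and between 1850.1 and 2471 in old arrays and rose by 1.09 ± 0.10 (standard error) with an adjusted p of 0.000165. Igf2r, a mannose 6-phosphate receptor, rose by 0.62, Grn, whose product progranulin binds cathepsin D precursor, by 0.58, and Gnptab, which makes the mannose 6-phosphate tag, by 0.32. Sort1, which encodes the receptor sortilin, fell by 0.25 (adjusted p = 0.0212), a call lost without young replicate 1, 3 or 4 or old replicate 2 or 3. The number that rose was 4 without old replicates 2 and 4. Of 6 measured partners and substrates, 2 rose, where 11.8% of all genes did. They were Ifi30, a lysosomal thiol reductase (0.52), and Neu1, the neuraminidase bound by cathepsin A (0.22). Cd74, the invariant chain cut by cathepsin S, had a log2 fold change of −0.02. Of Ifi30 and Neu1, only Ifi30 was called when young replicate 1, 3 or 4 or any of old replicates 2 to 4 was left out.

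The other 13 cathepsin genes of the array, many of them placental, rose in 2 cases, fell in 1 and did not pass in 10, with a median of −0.02, which is near the share of all genes called in each direction (11.8% higher and 9.56% lower). Ctsw, of cytotoxic lymphocytes, had a log2 fold change of 0.51 (adjusted p = 0.00461), Cts3 one of 0.22 at intensities of 18.6 to 25.4, and Ctsq one of −0.31, and 8 of the 13 had mean intensities under 100. When any 1 array was left out, 1 rose, and Ctsq did not pass without young replicate 3 or 4 or old replicate 3. Ctsf and Ctso, which are widely expressed, read 920 to 957 and 1403 to 1458 in young arrays and 954 to 1006 and 1401 to 1492 in old arrays, ranges that overlap.

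Among 8 transcription factors of lysosomal or myeloid genes, 4 rose and 0 fell, with a median of 0.47, where 11.8% of all genes rose and 9.56% fell. Tfec, a relative of Tfeb and Mitf in macrophages, lay between 66.5 and 80.1 in young and between 171 and 212 in old arrays and rose by 1.44 (standard error 0.08, adjusted p = 3.34e-05). Spi1, whose core motif is in the windows of Ctsk and Ctss, in that of Ctsc, which did not pass the test, and in 31.3% of all genes, rose by 1.15, Irf8 by 0.91 and Cebpa by 0.83. Tfeb, Tfe3 and Mitf did not pass, with log2 fold changes of −0.01, 0.11 and −0.17.

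**Figure D4:**
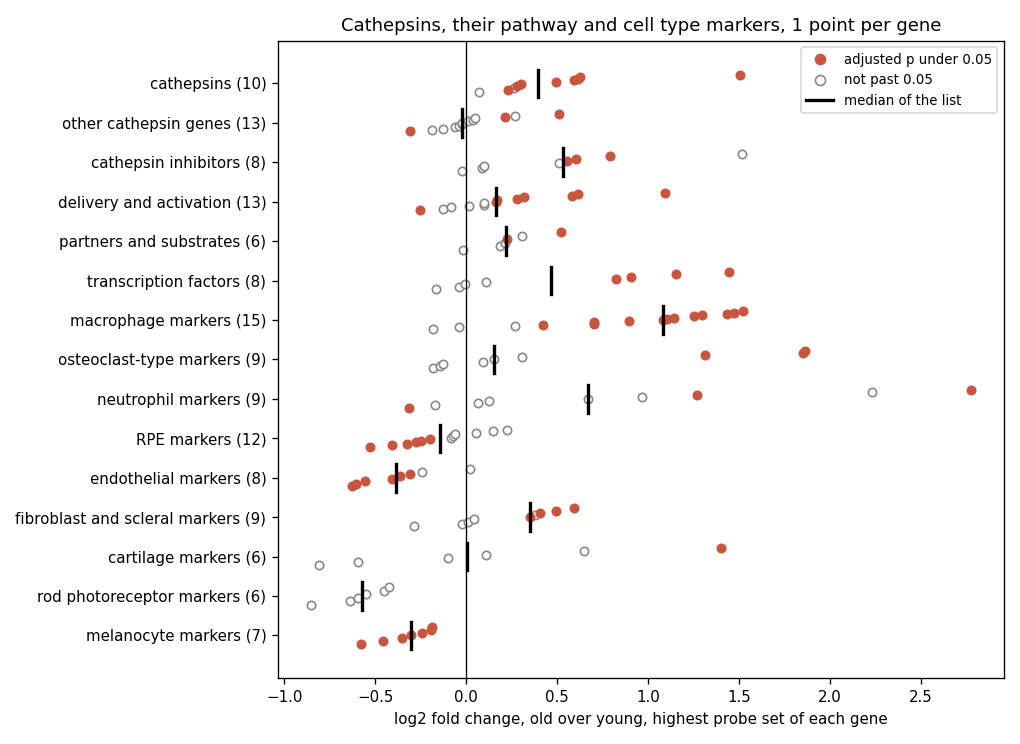
Log2 fold change, old over young, of the highest probe set of each gene for the 10 cathepsins, 5 lists of genes around them and 9 lists of cell type markers, filled where the adjusted p was under 0.05, with a bar at the median of each list. The cathepsin median is 0.40 and that of the macrophage markers 1.08, while all 7 melanocyte markers lie below 0.

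Markers of several cell types moved with age beside the cathepsins, and their counts stand against 11.8% of all genes that rose and 9.56% that fell. Of 15 macrophage markers 12 rose and 0 fell, with a median of 1.08. Among those that rose were Itgam (1.52), Cd68 (1.47), Trem2 (1.44) and Ptprc (1.30). Ptprc encodes CD45, which the paper used to label leukocytes of every kind, so not all of the list is particular to macrophages. Csf1r (−0.04) and Cx3cr1 (−0.18) did not pass and Cd163 was dim at a mean of 48.4. The summed intensity of the 15 markers lay between 29614 and 33737 in young and between 50838 and 54659 in old arrays. That of the 10 cathepsins lay between 47999 and 50873 in young and between 62208 and 66393 in old arrays. Of 9 osteoclast-type markers 3 rose, Atp6v0d2 (1.86), Acp5 (1.85) and Itgb3 (1.31), and the list median was 0.16. The other 6 did not pass: Mmp9 (0.31), Oscar (0.16), Calcr (0.09), Ocstamp (−0.13), Tnfrsf11a (−0.14) and Dcstamp (−0.18). Their list had sums between 1717 and 2166 in young and between 4700 and 6010 in old arrays. Atp6v0d2 alone averaged 1025 in young and 3687 in old arrays. Calcr, the calcitonin receptor, had a mean of 18.1, and 3 of the 9 were under 100.

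Markers listed for the RPE fell or did not pass. Of 12 RPE markers 0 rose and 6 fell, where 11.8% of all genes rose and 9.56% fell. The falls were led by Trpm1 (−0.53), Tyr (−0.41), Otx2 (−0.33) and Rlbp1 (−0.27). The number that fell was 3 without young replicate 3, old replicate 2 or old replicate 3, and 1 without old replicates 2 and 4. Rpe65 (−0.06), Rgr (−0.08), Ttr (−0.07), Best1 (0.06), Mertk (0.15) and Slc16a3 (0.23) did not pass. The sum of the 12 lay between 89587 and 91207 in young and between 78649 and 83399 in old arrays. Rpe65, a defining marker, averaged 11578 in young and 11066 in old arrays. All 7 melanocyte markers fell, among them Kit (−0.58), Ednrb (−0.46), Pmel (−0.35) and Sox10 (−0.30), but 4 when any array other than young replicate 2 or old replicate 1 was left out and 0 without old replicates 2 and 4, with between 54243 and 55581 summed in young and between 42659 and 50479 in old arrays. Of 8 endothelial markers 6 fell, among them Tek (−0.63), Tie1 (−0.61), Kdr (−0.56) and Cdh5 (−0.41), 2 with old replicates 2 and 4 left out and 3 without old replicate 3, with sums between 9546 and 11746 in young and between 7252 and 9055 in old arrays. Of 9 fibroblast and scleral markers 4 rose, Fmod (0.59), Col6a1 (0.49), Pdgfra (0.40) and Thbs2 (0.35), and the list median was 0.35. The other 5, Postn (0.38), Lum (0.04), Dcn (0.01), Col1a1 (−0.03) and Col3a1 (−0.29), did not pass. Sums of the list ran from 25767 to 28508 in young and from 28137 to 33385 in old arrays. Of 6 cartilage markers 1 rose, Comp (1.40), where 11.8% of all genes did, and the list median was 0.005. The other 5, Chad (0.65), Acan (0.11), Col2a1 (−0.10), Matn3 (−0.60) and Cnmd (−0.81), did not pass. Sums, led by the bright Comp and Chad, ran from 1784 to 2766 in young and from 3383 to 4771 in old arrays. The part of any of these cell types in the cathepsin changes was not tested.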

How the data were processed

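RNA of 4 young and 4 old RPE/choroid samples was measured on Affymetrix mouse arrays. The authors deposited linear intensity values of 45101 probe sets. The study's methods name more than 1 normalization and do not say which gave these values; array medians ran from 129 to 135. Detection calls were not used here. Log2 was taken after values below 1, which numbered at most 14 in an array, had been raised to 1. Old was compared with young in limma 3.58.1 (lmFit and eBayes, R 4.3.3) over 45037 probe sets, 64 controls left out, with Benjamini-Hochberg adjustment and no covariate. Differences between probe sets of a gene were fitted the same way. GEO's platform annotation gave 1 gene for 34945 of these probe sets, several for 932 and none for 9160. All 10 cathepsin genes were named, with counts of 5 or fewer members of a list, or otherwise the 4 largest changes past an adjusted p of 0.05 or the 2 smallest p. Positions and promoters are RefSeq's (GRCm38.p6), and motifs were matched on both strands. The members, lists and rules were chosen with earlier results of these data known. The scripts were tested on simulated data. Alternatives were quantile normalization, median centring, a floor of 32, a filter of 100 in 4 arrays, trend and robust estimation, array weights, a replicate block, other gene summaries and thresholds, and leaving out arrays.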

Additional observations from a re-analysis of the deposited data

Results flagged for a closer look

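A value far from the other 3 of its age was found in 2 of 44 groups of 4 arrays (22 probe sets at 2 ages), where chance gives about 1 in 20. Ctsd 1448118_a_at had an intensity of 10865 in old replicate 1, while the other old arrays read 11254 to 11317. Ctse 1418989_at had one of 188 in old replicate 2, against 116 to 124 for the remaining old arrays.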

How the results depend on the processing

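The number of cathepsin probe sets that rose was 13 to 16, and of genes 6 to 9, over all alternatives, against 15 and 8 as reported, and 0 fell under those in which falls were counted. Of 351 single values recomputed for the probe sets, 347 kept their direction and side of the threshold. Ctsa 1458466_at passed without old replicate 1 (0.23, adjusted p = 0.0482), and Ctsd and Ctsl missed the threshold when old replicates 2 and 4 were both left out, which was tried only after the data had been seen and also turned Ctsc 1446834_at, called under neither, from −0.14 to 0.092 (adjusted p = 0.646).

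Pairs of probe sets that differed in their change numbered 6, 3 with the replicate block, 3 without old replicates 2 and 4, and 3 to 6 when 1 array was left out. Over the 5 lists of genes around the cathepsins, 2 genes fell, 1 with the replicate block, 0 without old replicates 2 and 4, and 0 to 3 when 1 array was left out. With the replicate block 15 probe sets and 8 genes rose. The numbers were not taken as pairs: the deviations from the age means of young and old arrays that share a number were correlated at 0.0971, 0.0190, 0.0218 and 0.0427, and only replicate 1 matched its own number best. The cause of these changes was not tested. Probe sets under an intensity of 300 limit what can be said of Ctse and of the dim probe sets of Ctsa, Ctsb, Ctsc and Ctsl.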
